A study of Mus musculus with 4 samples.

Results

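The imprinted H19-Igf2 and Kcnq1 domains were described in DNA methylation data from the brains of female mice exposed to estriol (E3) before birth and of vehicle control (CT) mice. The domains were taken as a stretch of mouse chromosome 7 of the mm10 genome (chr7:142500000-143500000), and 7 genes were followed by name: H19, Igf2, Kcnq1, Kcnq1ot1, Cdkn1c, Phlda2 and Ascl2. At least 5 reads in both hippocampus libraries covered 1384 CpG sites of the stretch, out of 2226271 in the genome, where a site is a cytosine on 1 strand. The bodies and promoters of the 7 genes held 748 sites, and all 74 sites of Phlda2 lie beyond the end of the stretch and were added by gene. Kcnq1ot1 lies inside Kcnq1, so its 51 sites are also counted among the 239 sites of Kcnq1.

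An imprinted gene is expressed from the copy of 1 parent, and the choice is set by methylation that differs between the maternal and the paternal chromosome at a control region. At such a region a tissue reads as partly methylated, because methylated and unmethylated copies are mixed. The control region upstream of H19 is methylated on the paternal chromosome. On the unmethylated maternal copy it binds the insulator protein CTCF, which separates Igf2, a fetal growth factor, from the enhancers shared with H19, a noncoding RNA. The control region of the Kcnq1 domain is the promoter of Kcnq1ot1, a long noncoding RNA read antisense to the potassium channel gene Kcnq1. It is methylated on the maternal chromosome, and the RNA from the paternal copy silences neighbours such as Cdkn1c, a cell cycle inhibitor, Phlda2, a brake on placental growth, and Ascl2, a transcription factor of the placenta.

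The mice were wild-type offspring of CD-1 mothers, an outbred stock, with a labelled age of 8 weeks. The mothers of the E3 group received E3 (0.46 mg/ml in DMSO) from an implanted pump from gestation day 9, and those of the CT group DMSO alone. Methylation was measured by Methyl-MiniSeq, a bisulfite method that reads cytosines near the sites of the enzymes MspI and TaqαI. Each tissue had 1 E3 library and 1 CT library, and the sources used here do not say whether a library held 1 mouse or several, so the tests are between libraries and say nothing about the spread between mice. In the hippocampus, the stretch was covered by a median of 26 reads per CpG site in E3 and 10 in CT. Reads were counted without molecular identifiers, so intervals (95%, Wilson) cover counting error only. For the frontal cortex, the analysed tables list sites that the authors had called different, without depth.

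The method read 1019 of the 9072 CpGs in the stretch (11.2%). In the promoter interval of Kcnq1ot1 (chr7:143295547-143297547, 1000 bases on each side of its start) it read 7 of 78 CpGs, all within a short run downstream of the start that lies in the exon of Kcnq1ot1 and in an intron of Kcnq1. The reads there adjoin an MspI or TaqαI site at position 143295616, and no read CpG lies nearer the start. The run and the next covered one are shown because the result at the Kcnq1ot1 promoter rests on them, on the plus strand of mm10, with the CpGs that were read in capitals.
Kcnq1ot1 promoter run, chr7:143295566-143295622: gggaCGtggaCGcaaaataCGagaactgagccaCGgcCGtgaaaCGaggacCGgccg
Run beside it, chr7:143295401-143295513: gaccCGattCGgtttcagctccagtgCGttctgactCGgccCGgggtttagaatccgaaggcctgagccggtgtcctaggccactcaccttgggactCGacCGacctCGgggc

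At the Kcnq1ot1 promoter, the control region of the Kcnq1 domain, the E3 library was about evenly methylated and the CT library was mostly unmethylated. Over the 13 sites of the 7 CpGs, 49.7% of 575 cytosine reads were methylated in E3 (interval 45.7 to 53.8%) and 10.2% of 254 in CT (7.08 to 14.6%), a difference of 39.5 points. The 7 CpGs lie on the same short fragments and the same reads are counted at several of them, so these intervals are too narrow. Of the 21741 promoters with at least 5 CpG sites, 0.382% differed by as much or more in either direction, and 0.202% were higher in E3 by as much or more. The promoters were not matched for level or for number of sites, and a nearly unmethylated one has little room to differ. A promoter was called when its summed reads passed Fisher's exact test after adjustment over all promoters and differed by 10 points or more. The Kcnq1ot1 promoter was called (Fisher's exact test, adjusted p = 8.9e-28, Benjamini-Hochberg), where 10.3% of all promoters were called, 5.01% as higher and 5.27% as lower. For the same reason, this p is too small. Of the promoters of the 7 genes, 1 was called. Those of Kcnq1 (adjusted p = 6.2e-06) and Igf2 (adjusted p = 0.00023) passed Fisher's exact test but differed by under 10 points, and the other 4 passed neither criterion.

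The 2 strands of these CpGs gave different sizes of difference. On the minus strand, the 7 sites stood between 62.5% and 71.9% in E3 and between 0% and 8% in CT, and all 7 were called higher. The site with the smallest p, at position 143295586, was methylated in 66.7% of 63 reads in E3 and in 0% of 25 in CT (Fisher's exact p = 1.2e-09, adjusted p = 1.4e-06 over all CpG sites). On the plus strand, the 6 sites stood between 27.6% and 31.6% in E3 and between 13.3% and 14.8% in CT, and 0 of 6 were called. Pooled, the minus strand differed by 59.8 points and the plus strand by 15.7 points, so the direction was the same and the size was not. The number of reads at a site was 57 to 63 in E3 and 25 to 27 in CT at the 3 CpGs farthest from the start, and 29 to 32 and 13 to 15 at the others. Read numbers near the double of those of neighbouring sites were seen in both libraries, and whether some reads were counted 2 times was not tested. With the reads of both libraries halved, an alternative chosen after seeing the data, the p at 143295586 was 3.7e-05 by Fisher's exact test, and the exact p of the 7 minus-strand sites reached 0.069 at most.

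**Figure D1:**
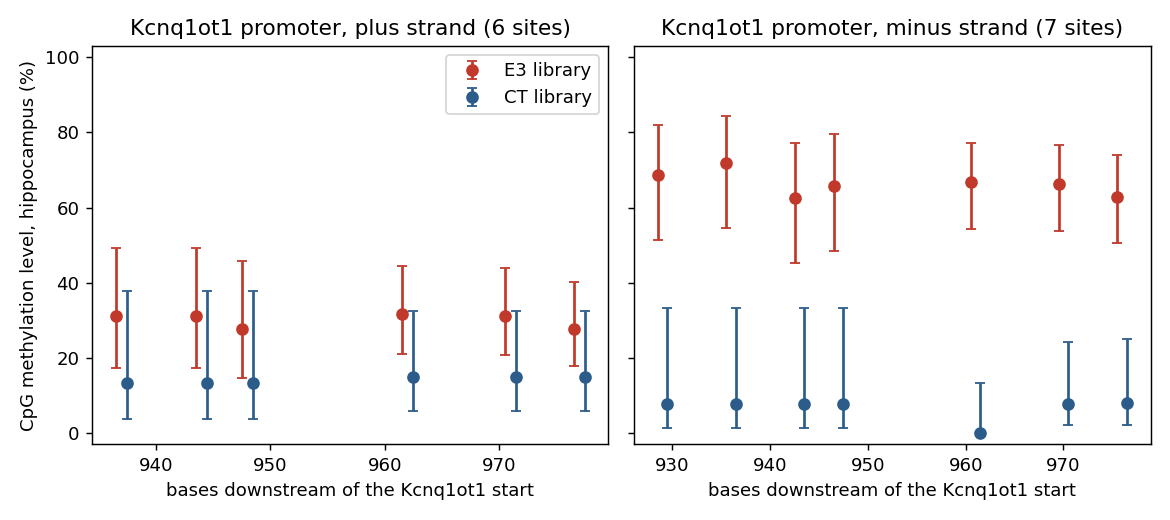
Methylation level (%) of each CpG site of the Kcnq1ot1 promoter against its distance in bases downstream of the start, for the plus strand (left) and the minus strand (right). Points are the E3 and CT hippocampus libraries and bars are 95% Wilson intervals of the reads at that site. On the minus strand the E3 points sit at 62.5% or above and the CT points at 8% or below. On the plus strand the intervals overlap.

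Non-CpG cytosines of the promoter were read on the same fragments, and their part in the difference was not tested. Pooled over the strands, 1.67% of 300 reads were methylated in E3 and 0% of 134 in CT at CHG cytosines (where H is A, C or T), and 1.56% of 1218 and 1.87% of 536 at CHH cytosines. CHH cytosines stood at 1.09% in E3 and 0.288% in CT on the minus strand and at 2.57% and 4.76% on the plus strand. There, the CHH cytosine at 143295596 was called lower, with 0% of 57 reads methylated in E3 and 14.8% of 27 in CT, the CT value also found at the plus-strand CpG sites 143295570, 143295576 and 143295585. The run just beside the promoter interval showed differences in both directions. There, the plus-strand sites at 143295405 and 143295410 were each methylated in 56.5% of reads in E3 and 0% in CT, and the minus-strand cytosines of the same CpGs, at 143295406 and 143295411, in 34.8% of 46 reads in E3 and 83.3% of 12 in CT. All 4 were called. The minus-strand sites at 143295503 and 143295509 were again higher in E3, with 65.6% and 62.5% against 7.69% in CT. Widening the interval to 2000 bases on each side brought these sites in and gave a difference of 29.1 points over 25 sites.

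At the region upstream of H19, the E3 library was higher as well, with a smaller difference. The control region is known to lie about 2 to 4 kb upstream of the start, and the 2001 bases taken there (chr7:142580146-142582146) hold 60 CpGs, of which 17 were read at 23 sites. In E3 46.7% of 805 cytosine reads were methylated and in CT 33.7% of 380. Of its sites, 8 were called higher and 1 lower (39.1%), against 11.0% of all CpG sites (6.18% higher and 4.83% lower). Among all CpG sites with a mean level of the libraries between 30 and 70%, 38.7% were called, so the share was close to that of middle levels. For a site to be called, the libraries had to be 10 points or more apart with an unadjusted Fisher's exact p under 0.05. The run that held 6 of the 8 higher calls is shown on the plus strand of mm10, with its CpGs, all of them read, in capitals.
H19 upstream run, chr7:142580926-142581098: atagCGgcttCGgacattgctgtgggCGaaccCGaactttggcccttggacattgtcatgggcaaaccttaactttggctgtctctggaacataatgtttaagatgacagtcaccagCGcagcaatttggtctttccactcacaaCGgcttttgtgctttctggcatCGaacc

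In this run, the difference lay on the minus strand. The 7 minus-strand sites were methylated in 46.2% of 329 cytosine reads in E3 and in 13.6% of 125 in CT, and 6 were called higher. The site at 142581044 stood at 34.0% of 47 reads in E3 and 0% of 18 in CT (Fisher's exact p = 0.0031), and the site at 142580959 at 57.4% of 47 and 16.7% of 18 (exact p = 0.0048). On the plus strand of the same run, 29.6% of 179 cytosine reads were methylated in E3 and 32.4% of 111 in CT over 6 sites, and the site at 142581043 was called lower, with 24.1% of 29 reads in E3 and 61.1% of 18 in CT. That site is the other strand of the CpG called higher at 142581044. The other higher calls of the region, at 142582055 and 142582086, were on the plus strand and stood at 61.3% and 64.5% of 31 reads in E3 and at 25% of 16 in CT.

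The region was searched on both strands for the core of the CTCF motif and held 4 matches, while 0.338% of 89654 windows of the same length around transcript starts held any. The match farthest upstream, CCGCGTGGTGGCAG at chr7:142582034-142582047 on the minus strand, was the 1 with CpGs that were read. Its 2 CpGs were methylated in 74.2% of 62 cytosine reads in E3 and 78.1% of 32 in CT, a difference within the intervals. The shorter motif TGCCGC, bound by ZFP57, a protein that protects imprinted methylation, was found 3 times in the Kcnq1ot1 promoter interval, with none of its CpGs read, and 5 times upstream of H19, with 1 read. It overlaps the CTCF matches in part, and 36.0% of the windows hold it. A match is a run of letters and was not measured as a binding site.

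**Figure D2:**
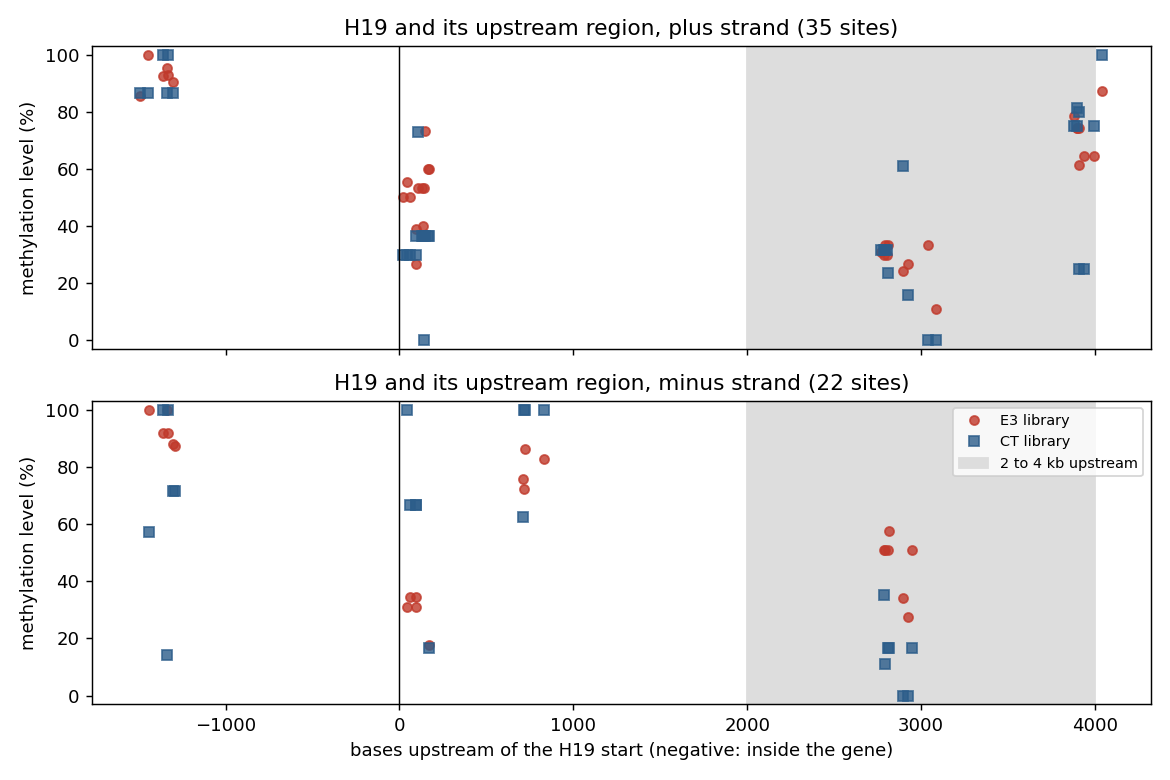
Methylation level (%) of each read CpG site against its distance in bases upstream of the H19 start, with negative distances inside the gene, for the plus strand (top) and the minus strand (bottom) in the E3 (circles) and CT (squares) hippocampus libraries. The grey band marks 2 to 4 kb upstream. On the minus strand in the band the E3 sites stand at 27.7% to 57.4% and the CT sites at 0% to 35.3%.

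H19 itself was methylated at about the level of an imprinted promoter near its start and highly inside the gene. In the promoter, 50.4% of 520 cytosine reads were methylated in E3 and 44.2% of 267 in CT, a difference of 6.19 points that was not called (Fisher's exact test, adjusted p = 0.22). The strands went opposite ways, with 51.6% against 33.2% on the plus strand and 49.5% against 76.5% on the minus strand, where the CT library had 6 to 8 reads at most sites. Inside the gene, the level was 92.9% in E3 and 85.5% in CT. The strongest call of H19, at 142576810 on the minus strand, had 100% of 25 reads methylated in E3 and 14.3% of 7 in CT (Fisher's exact p = 7.7e-06), and 142576703 had 100% of 25 and 57.1% of 7. Near both of these sites, within 50 bases on the same strand, non-CpG cytosines were at 12.9% in E3 and 0% in CT, and their part in the result was not tested. Of the 33 H19 sites, 4 were called higher and 1 lower (15.2%, against 11.0% of all CpG sites). Between a mean level of 30 and 70%, 2 of 17 were called (11.8%), against 38.7% of all CpG sites of that level.

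Igf2 was nearly unmethylated in both libraries. Over its 182 sites the level was 5.79% in E3 and 4.97% in CT, and over the 126 sites of its promoters 3.60% and 1.57%. A mean level of the libraries under 10% held at 159 of the 182 sites. Of the 182, 4 were called higher and 4 lower (4.4%, against 11.0% of all CpG sites). The largest difference was inside the gene at 142665589, with 100% of 19 reads methylated in E3 and 0% of 5 in CT. The largest in a promoter, at 142656973, was 91.7% of 48 reads against 25% of 8 (Fisher's exact p = 0.00016). The lower call with the smallest p, at 142660508, was 4.76% of 21 reads in E3 and 66.7% of 9 in CT. Within 50 bases on the same strand as that site, non-CpG cytosines were methylated at 25.7% in CT and 2.12% in E3, and their part in the call was not tested. The last 2 kb of Igf2, the place of a known differentially methylated region, held 1 site, with 7 of 9 reads methylated in E3 and 6 of 6 in CT.

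**Figure D3:**
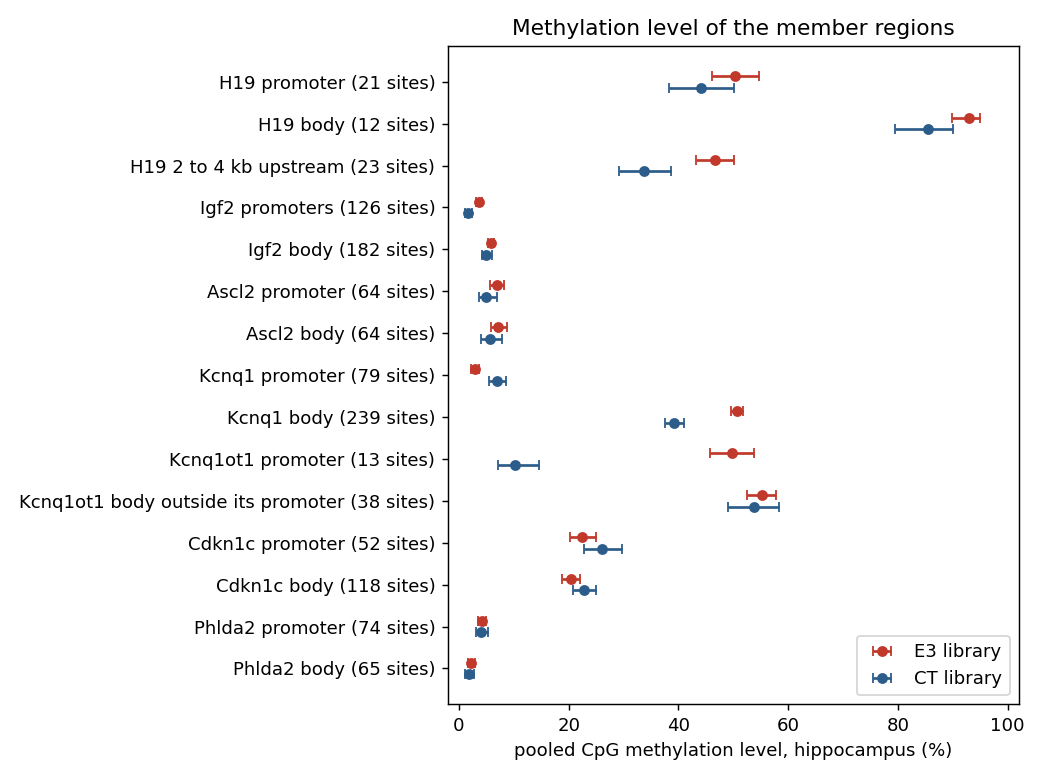
Pooled CpG methylation level (%) of the regions of the 7 genes in the E3 and CT hippocampus libraries, with 95% Wilson intervals of the reads and the number of sites in each region. The Kcnq1ot1 promoter shows the largest gap (49.7% against 10.2%), while the promoters and bodies of Igf2, Ascl2 and Phlda2 stay below 10% in both libraries.

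Kcnq1 held the most calls of the 7 genes. It had 34 sites called higher and 17 lower of 239 (21.3%, against 11.0% of all CpG sites). The comparison was not matched for level. Between a mean level of 30 and 70%, Kcnq1, with Kcnq1ot1 inside it, had 33 of 64 sites called (51.6%), against 38.7% of all such CpG sites. The pooled level of Kcnq1 was 50.7% in E3 and 39.2% in CT. The unweighted mean over its sites differed less, with 46.2% and 42.9%. Away from its promoter and from Kcnq1ot1, the gene body was highly methylated, 74.5% in E3 and 68.3% in CT. There, 20 of 109 sites were called higher and 6 lower (23.9%). The share was 11.0% over all CpG sites and 23.2% over those with a mean level between 70 and 90%. A run of 3 minus-strand sites in an intron (chr7:143372992-143373053) stood at 85.9% in E3, 53.6 points above CT, and all 3 were called. A run of 4 plus-strand sites (chr7:143389262-143389311) stood at 54.5%, 42.0 points above CT, with 3 called. In CT these runs had a median of 21 and of 8 reads per site. A run of 5 minus-strand sites (chr7:143354353-143354480) went the other way, at 60.9% in E3 and 86.6% in CT. In it, 1 site was called higher and 2 lower, with a median of 10 reads per site in CT.

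The promoter of Kcnq1 was nearly unmethylated, at 2.87% in E3 and 6.85% in CT. Of its 79 sites, 5 were called (6.33%), all lower in E3. Of all CpG sites 11.0% were called, 4.83% as lower. The called sites at 143106896 and 143106925 had the same values, 17.6% of 17 reads in E3 and 100% of 6 in CT. Both strands of 1 CpG were called there. At 143107642 on the plus strand 0% of 34 reads were methylated in E3 and 60% of 20 in CT (Fisher's exact p = 3.7e-07, adjusted p = 0.00012), and at 143107643 on the minus strand 0% of 36 and 50% of 28 (exact p = 8.4e-07, adjusted p = 0.00022). With 0 of 36 reads, a level of up to 9.64% stays inside the interval. Non-CpG cytosines within 50 bases on either strand were below 1% in both libraries. The site with the next smallest p among lower calls, at 143354456 in an intron, had 17.2% of 58 reads methylated in E3 and 90% of 10 in CT.

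Kcnq1ot1 had the largest share of its sites called, 14 higher and 6 lower of 51 (39.2%, against 11.0% of all CpG sites). Outside its promoter interval the pooled level was alike in the libraries, 55.2% in E3 and 53.7% in CT. There, 7 of 38 sites were called higher and 6 lower (34.2%). The share was 11.0% over all CpG sites and 38.7% over those with a mean level between 30 and 70%. The strands went apart here as well, with the plus strand 13.9 points higher in E3 and the minus strand 18.7 points lower on the pooled reads, that is 51.3% in E3 and 69.9% in CT. In the run chr7:143265430-143265554, the plus-strand sites 143265483 and 143265487 stood at 71.4% and 88.1% in E3 and at 25% in CT, and the minus-strand cytosines of the same CpGs, 143265484 and 143265488, at 37.5% and 62.5% in E3 and at 80% and 100% in CT. All 4 were called, in opposite directions on the strands. A further site, 143266121, was lower in E3, with 20.9% of 43 reads methylated against 77.8% of 18 in CT. The CpG site beside it on the same strand, 143266116, was called higher, with 62.8% of 43 reads in E3 and 23.5% of 17 in CT. The CHG cytosine at 143266139 on that strand was methylated in 4.65% of 43 reads in E3 and 77.8% of 18 in CT. What that cytosine has to do with either call was not tested.

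**Figure D4:**
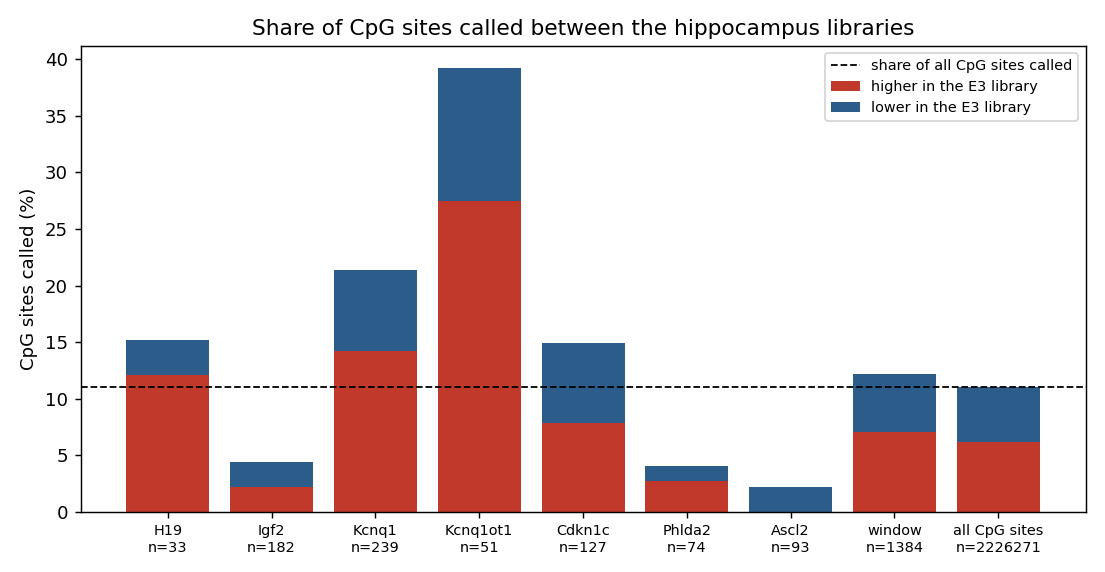
Share of CpG sites called (%) in each gene, in the stretch of chromosome 7 and in all CpG sites, with calls higher in the E3 library (red) below calls lower in it (blue) and the number of sites under each bar. The dashed line is the share of all sites, 11.0%, and is not matched for level. Kcnq1ot1 (39.2%) and Kcnq1 (21.3%), which share sites, stand above it, and Igf2, Phlda2 and Ascl2 below it.

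The genes silenced from the Kcnq1 control region showed no shift of their pooled level as large as the one at Kcnq1ot1. Cdkn1c stood at 22.4% in E3 and 23.7% in CT, an intermediate level. Of its 127 sites, 10 were called higher and 9 lower (15.0%, against 11.0% of all CpG sites). Among its sites with a mean level between 10 and 30%, 18.1% were called, against 28.2% of all CpG sites of that level. All 9 lower calls were on the minus strand. At 143459153 in an exon, 18.2% of 22 reads were methylated in E3 and 100% of 12 in CT (Fisher's exact p = 3.3e-06, adjusted p = 0.00062), and at 143459074 0% of 11 and 100% of 6. On the other side, 143462004 in the promoter had 57.1% of 14 reads methylated in E3 and 0% of 15 in CT (Fisher's exact p = 0.0007). Higher and lower calls alternated over short distances. The minus-strand sites at 143459265 and 143459267 had 35.7% and 0% of 28 reads methylated in E3 and 0% and 23.8% of 21 in CT, and both were called.

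Phlda2 and Ascl2 were nearly unmethylated. Phlda2 stood at 4.19% in E3 and 4.02% in CT. Of its 74 sites, 2 were called higher and 1 lower (4.05%, against 11.0% of all CpG sites). All of these calls were in the promoter on the minus strand. The lower call, at 143503285, was the one of these with the smallest p, with 6.78% of 59 reads methylated in E3 and 75% of 24 in CT (Fisher's exact p = 9.1e-10, adjusted p = 1.1e-06). The site at 143503264 on the same strand went the other way, with 35.6% of 59 and 4.17% of 24. Ascl2 stood at 8.03% and 6.68%, and its 2 calls (2.15% of its sites) were lower in E3. At 142967473 0% of 22 reads were methylated in E3 and 60% of 5 in CT, and at 142969783 61.4% of 44 and 100% of 11. At a CHG cytosine beside the latter, 142969790, 2.27% of the E3 reads and 45.5% of the CT reads were methylated, and its part was not tested.

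Read over the whole stretch, the calls were about as frequent as elsewhere. Of the 1384 sites, 97 were called higher and 71 lower (12.1%), and of the 748 sites of the 7 genes 54 and 34 (11.8%), against 11.0% of all CpG sites. The share called depends on the level, since a nearly unmethylated or fully methylated site has little room to differ. Among sites with a mean level of the libraries between 30 and 70%, 36.2% were called in the 7 genes and 38.7% genome-wide, and between 10 and 30% 22.6% and 28.2%. Below 10% the shares were 0.254% and 0.48%, between 70 and 90% 20.4% and 23.2%, and from 90% on 3.85% (2 of 52 sites) and 0.755%. In the class between 30 and 70%, Kcnq1ot1 had 16 of 25 sites called and Kcnq1 33 of 64, and H19 2 of 17. The Kcnq1 sites include those of Kcnq1ot1, so its calls are counted in both genes. Of 256 covered runs of the stretch, 16 held 3 or more called sites. Such runs were not counted over the genome, and sites of a run can share reads, so this count has no background.

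The strands of a CpG were compared because methylation of a CpG is normally copied to both. In the stretch, 63 CpGs that were read on both strands had a call on either, and in 5 of them both strands were called in the same direction and in 6 in opposite directions. Among such CpGs of the whole genome, 8.81% were called in the same direction on both strands, and among those of the 7 genes 2 of 26 (7.69%). Opposite calls made up 4.58% in the whole genome, 9.52% in the stretch (6 of 63) and 15.4% in the 7 genes (4 of 26). These differences in share were not tested. The 4 CpGs in the 7 genes all lie in Kcnq1ot1, at 143265483, 143265487, 143295405 and 143295410, in the 2 runs described above. At CpGs of a middle level, the strands of the same library differed by a median of 21.1 points in E3 and 26.7 points in CT, and the libraries, with strands summed, by 14.1 points (54 CpGs). At such CpGs of the whole genome, the 3 medians were 13.0, 37.1 and 18.6 points. At the 6 CpGs of the Kcnq1ot1 promoter read on both strands, taken at any level, the strands differed by a median of 35.2 points in E3 and 6.23 in CT. The libraries differed there by 37.3 points. Only 2 of these 6 CpGs were of a middle level, with 38.0, 6.38 and 39.8 points. In CT both strands were low there (14.3% and 6.25% pooled), which leaves little room for a gap between them.

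The promoters of 3 imprinted genes outside the domains, Snrpn, Peg3 and Mest, all methylated on the maternal chromosome, were read as a reference. Snrpn stood at 40% in E3 and 59.0% in CT, and its promoter was called lower (Fisher's exact test, adjusted p = 5.6e-06). Of its 21 sites, 5 were called higher and 10 lower (71.4%). The share was 11.0% over all CpG sites and 38.7% over those with a mean level between 30 and 70%. Peg3 stood at 44.8% and 45.5%, with 0 higher and 6 lower of 19 (31.6%), and was not called as a promoter. Mest stood at 54.6% and 64.9%, and its strands went opposite ways, with 9 higher calls on the plus strand and 8 lower ones on the minus strand (63.0% of 27 sites). Its promoter was called lower as well (adjusted p = 0.0062, Fisher's exact test). Large differences between the libraries on a strand thus occurred in these promoters too. The pooled CT level of the Kcnq1ot1 promoter, 10.2%, was below that of each of the 3, and its pooled E3 level lay among theirs. Intervals at its single plus-strand sites in CT reach up to 37.9%.

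**Figure D5:**
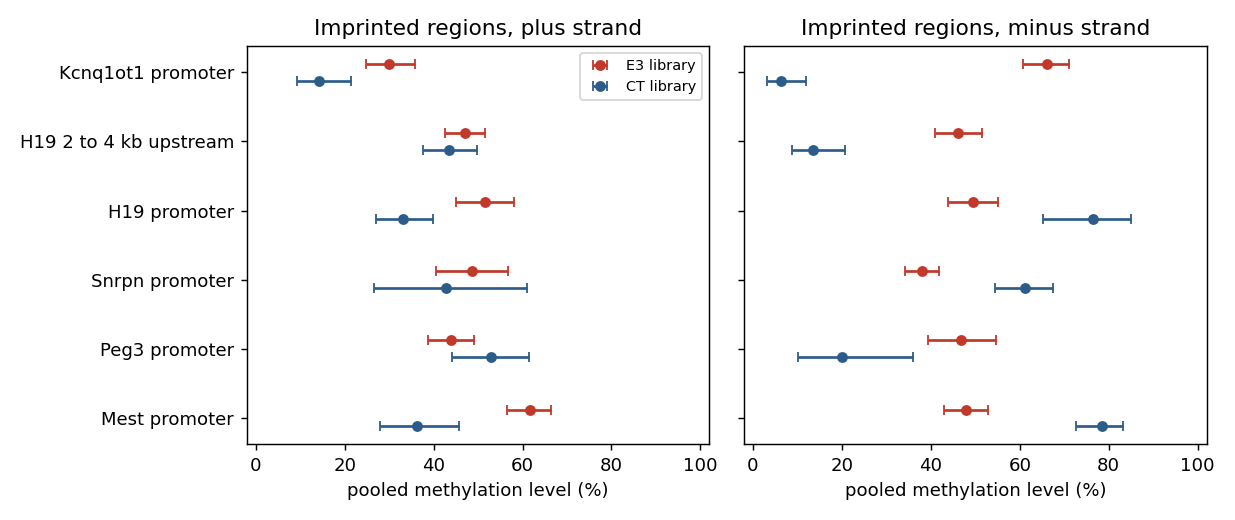
Pooled methylation level (%) on the plus strand (left) and the minus strand (right) at imprinted regions, the H19 promoter included, in the E3 and CT hippocampus libraries, with 95% Wilson intervals of the reads. On the minus strand E3 is above CT at Kcnq1ot1 (66% against 6.25%), upstream of H19 and at Peg3, and below it at the H19 promoter, Snrpn and Mest.

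Of 16 other genes in and around the domains, 15 had sites and 11 had a call, 3 with higher calls alone, 4 with lower calls alone and 4 with both. Over their 648 sites, 24 were called higher and 12 lower, which is 5.56%, against 11.0% of all CpG sites. By direction the shares were 3.7% higher and 1.85% lower, against 6.18% and 4.83% of all sites. The comparison was not matched for level. Igf2os (176 sites) and Nap1l4 (109 sites) had pooled levels under 10%, and of all CpG sites with a mean level under 10%, 0.48% were called. Osbpl5, a lipid transfer protein gene at the far end of the Kcnq1 domain, had the most, 9 higher and 1 lower of 85 sites (11.8%). Its level was 55.8% in E3 and 46.3% in CT. Igf2os, the antisense transcript of Igf2, overlaps Igf2 and had 4 higher and 3 lower of 176. Slc22a18, a maternally expressed transporter gene, had 3 higher and 2 lower of 31. Mir675, a microRNA made from H19, had 3 higher of 12, the same sites as those inside H19, and Nap1l4, a histone chaperone gene, had 2 higher and 1 lower of 109. Ins2 had no site with enough reads.

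Methylation outside CpG was low in the 7 genes. At CHG cytosines it was 1.88% in E3 and 1.79% in CT, and at CHH cytosines 2.20% and 1.86%. Of 1147 CHG sites 2 were called higher and 30 lower (2.79%, against 3.42% of all CHG sites), and of 2929 CHH sites 9 and 75 (2.87%, against 3.68% of all CHH sites). Calls were lower in E3 far more often than higher in the genome as well, with 3.17% of all CHG sites lower and 0.254% higher, and 3.36% of all CHH sites lower and 0.319% higher. In the Igf2 promoter, 7 CHH cytosines between 142660451 and 142660488 on the minus strand each had 44.4% of reads methylated in CT and at most 4.88% in E3, the run that lies beside the lower CpG call described above. Among the called CpG sites of the 7 genes, non-CpG cytosines within 50 bases on the same strand reached 10% in CT beside 2 of the 34 lower calls (5.88%) and 0 of the 54 higher ones, and in E3 beside 0 and 2 (3.7%). Of the 660 uncalled sites, 7 (1.06%) had such cytosines at 10% or more in CT and 17 (2.58%) in E3.

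In the frontal cortex, 5 of the 9731 CpG sites listed by the authors name one of the 7 genes, 1 higher and 4 lower in E3. Of all listed sites 36.3% were higher and 63.7% lower. Cdkn1c held 4 of them. At 143459509 in an intron, 3.28% of reads were methylated in E3 and 30% in CT, at 143459903 in an exon 10.1% and 33.3%, at 143459286 in an intron 4.49% and 15.9%, and at 143460132 in the promoter 24.8% and 11.9%. The site of Ascl2, at 142968578 in the promoter, had 3.17% and 18.8%. The depth behind these values is unknown.

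The hippocampus read 3 of these 5 CpGs, all of them in Cdkn1c, and called none with the strands summed. At 143459903, 41.7% of 24 reads were methylated in E3 and 71.4% of 7 in CT (Fisher's exact p = 0.22), the same direction as in the frontal cortex. At 143459286 the hippocampus had 17.1% of 35 in E3 and 10.3% of 29 in CT (Fisher's exact p = 0.49), and at 143460132 11.9% of 42 and 20% of 25 (p = 0.48), the opposite direction in both. No frontal cortex CpG site was listed for H19, Igf2, Kcnq1, Kcnq1ot1 or Phlda2, and since unlisted sites carry no values, their levels were not analysed here. Among non-CpG sites, the lists name the 7 genes at 1 CHG site and 4 CHH sites, in H19, Igf2 and Kcnq1. The CHG site was lower in E3, as 79.5% of listed CHG sites were against 20.5% higher. Of the CHH sites, the one of Igf2 was higher and the other 3 lower, where 75.3% of listed CHH sites were lower and 24.7% higher.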

How the data were processed

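Genomic DNA of 4 libraries, 1 per tissue and condition, was digested with TaqαI and MspI, treated with bisulfite and sequenced (Methyl-MiniSeq). The study's methods name TrimGalore, Bismark and MethylDackel, and the submitters' processing notes the mm10 build. For the hippocampus, the deposited tables give the methylated fraction and the total read count of each cytosine. The number of methylated reads at a site was taken as the nearest whole number to the product of both. For the frontal cortex, the deposited tables give the methylated fraction of called sites, on which no test was run. The authors' own p-values, adjusted p-values and differences in these tables were not used.

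A site needed 5 reads in both libraries. Sites were called with a 2-sided Fisher's exact test, an unadjusted p under 0.05 and at least 10 points. Promoters reached 1000 bases on each side of every RefSeq start (GRCm38.p6, the assembly of mm10), their reads were summed over at least 5 sites, p-values were adjusted by Benjamini-Hochberg over 21741 promoters, and a call needed an adjusted p under 0.05 and at least 10 points. Both tests were tested on simulated data with independent reads. The simulation held no shared or repeated reads, so it cannot show how the p-values behave with them. Sequences and motifs were read from that assembly. Python 3.11.15 with numpy, pandas and numba was used.

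The 7 genes, the other genes and the regions were chosen with earlier results of these data known. The 7 genes are always described, with up to 3 called sites of smallest p in each direction for each and the 4 other genes with most called sites (Mir675 and Nap1l4 tie for the last place). Further sites, such as those of the run beside the promoter, of the H19 upstream region and of the runs in Kcnq1, were picked with their values in view. Mean coverage was 33.5 reads per CpG site in E3 and 12.3 in CT. Alternatives were other read minimums, 25 points, adjusted p-values, summed or single strands, thinned reads, very deep sites left out, means over sites and other promoter widths.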

Additional observations from a re-analysis of the deposited data

Results flagged for a closer look

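At 3 sites the frontal cortex and the hippocampus pointed opposite ways, with 1 library for each tissue and condition. The difference between the tissues was not tested. The Cdkn1c CpG at 143459286 was 6.80 points higher in E3 than in CT in the hippocampus and 11.4 points lower in the frontal cortex (E3 minus CT of -11.4). The Cdkn1c CpG at 143460132 differed by -8.10 points in the hippocampus and by 12.9 points in the frontal cortex. Neither was called in the hippocampus. The CHH cytosine at 143373061 in an intron of Kcnq1 was called higher in the hippocampus, by 38.5 points, with 38.5% of 26 reads methylated in E3 and 0% of 20 in CT, and was listed as lower in the frontal cortex, with 3.64% in E3 and 25% in CT.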

How the results depend on the processing

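The counts of called sites depended on the reads required and on the threshold. The stretch had 168 called sites, and 41 with at least 20 reads in both libraries, 56 with adjusted p-values, 42 with reads thinned to 10 per site and 61 with all reads halved, an alternative chosen after seeing the data. For the 7 genes the 88 calls became 23, 39, 29 and 41 in the same order. Fewer sites were tested at 20 reads, and fewer reads were used in thinning and halving. Kcnq1ot1 had 20, 12, 11 and 10 calls under 25 points, adjusted p-values, thinning and halving. At 10 reads, 25 points, summed strands, without very deep sites and without sites beside methylated non-CpG cytosines (also chosen after seeing the data), both counts stayed within 1.5 times. The Kcnq1ot1 promoter differed by 15.7 points on the plus strand alone, by 59.8 on the minus strand alone and by 29.1 with 2000 bases on each side, and its direction was the same in every alternative with sites. With 500 bases it held no site, and Cdkn1c was then the member promoter called. At 10 reads 2 member promoters were called, H19 and Kcnq1ot1. The frontal cortex list held 1 CpG site of the 7 genes at 25 points or more, and 9 in the stretch whatever gene was named. No paired analysis was possible because each group had 1 library. The lower depth of CT sets the precision of most values.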
